A study of Mus musculus with 10 samples.

Results

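In all, 10 genes whose products hold back or report on mTORC1, the kinase complex that couples nutrients to cell growth, were followed in RAW264.7 cells kept with doxorubicin. They were taken by symbol, as Sesn1, Sesn2, Sesn3, Ddit4, Tsc1, Tsc2, Deptor, Prkab1, Eif4ebp1 and Plk2. All 10 of 10 were found among the 22186 genes of the table, and 8 of them passed the filter on low values that left 9869 genes for testing. RAW264.7 is a mouse macrophage-like line from a virus-induced tumour, labelled as wild type. Doxorubicin, an anthracycline, poisons topoisomerase II and breaks DNA. Messenger RNA was measured in 5 libraries of cells kept in medium with doxorubicin and in 5 libraries of cells kept in medium alone, and the time given is 24 h. The dose is uncertain, since sample titles name 10 nM, the series design names 100 nM and the dilution in the treatment protocol works out at 1000 nM. Dimethyl sulfoxide is named as the solvent of the drug, and no solvent is named for the medium cultures. Nothing in the labels says that the 5 libraries of a group are separate cultures. The p-values therefore rest on the spread between these libraries, and that spread may be technical.

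Sestrins are stress-induced proteins that bind the GATOR2 complex when leucine is scarce and so keep mTORC1 off the lysosome. A second brake is the TSC complex, which switches off RHEB, the small GTPase that activates mTORC1, and both AMPK and REDD1 (the product of Ddit4) act through it. In human and mouse cells Sesn1 and Sesn2 are known p53 targets, and Sesn2, Ddit4 and Eif4ebp1 are known targets of ATF4, the transcription factor of the amino acid stress response. The values below are RNA levels in FPKM, a fragment count divided by the length of the gene's transcripts and by library size, and say nothing of protein or phosphorylation.

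The 2 libraries with replicate number 1 were the least like the others. Their correlations with the other 8 libraries, in log2(FPKM + 1), ran from 0.937 to 0.982, and those among the other 8 ran from 0.976 to 0.998. Of 10 macrophage markers, 9 reached at least 1 FPKM in every library, with a summed level of 1482 to 1687 FPKM with doxorubicin and 1416 to 1561 FPKM in medium. Of these markers, Lyz2 and Itgam were higher with doxorubicin in the blocked fit described below. Lymphocyte markers summed to at most 0.252 FPKM with doxorubicin and 0.120 FPKM in medium, and Cd3e and Nkg7 were listed at 0 throughout. Neutrophil markers summed to at most 1.49 FPKM with doxorubicin and 1.74 FPKM in medium, and fibroblast, epithelial and endothelial markers to at most 0.482 FPKM with doxorubicin and 0.379 FPKM in medium. The part of these levels in the results was not tested.

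In the comparison of doxorubicin with medium, 0 of the 8 genes tested passed a limma adjusted p of 0.05 with group as the only term, where 0.912% of all genes tested did (0.689% higher with doxorubicin). At an unadjusted p under 0.05 there were 3, Sesn1 higher and Eif4ebp1 and Prkab1 lower, against 17.8% of all genes, and an exact permutation test, whose adjusted p could not go below 0.1185 here, called 0. Libraries with the same replicate number varied together, and a fit with the number as a block called the same 3 genes, where 21.6% of all genes were called. Sesn1, the gene of sestrin 1, was the 1 gene higher, where 7.81% of all genes were called higher. Eif4ebp1, the translation repressor 4E-BP1, and Prkab1, the beta 1 subunit of AMPK, were the 2 genes lower, where 13.7% were called lower. The doxorubicin and medium libraries overlapped for each of the 10 genes, while 2.73% of all genes had every doxorubicin library above every medium library and 3.97% had every one below.

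**Figure D1:**
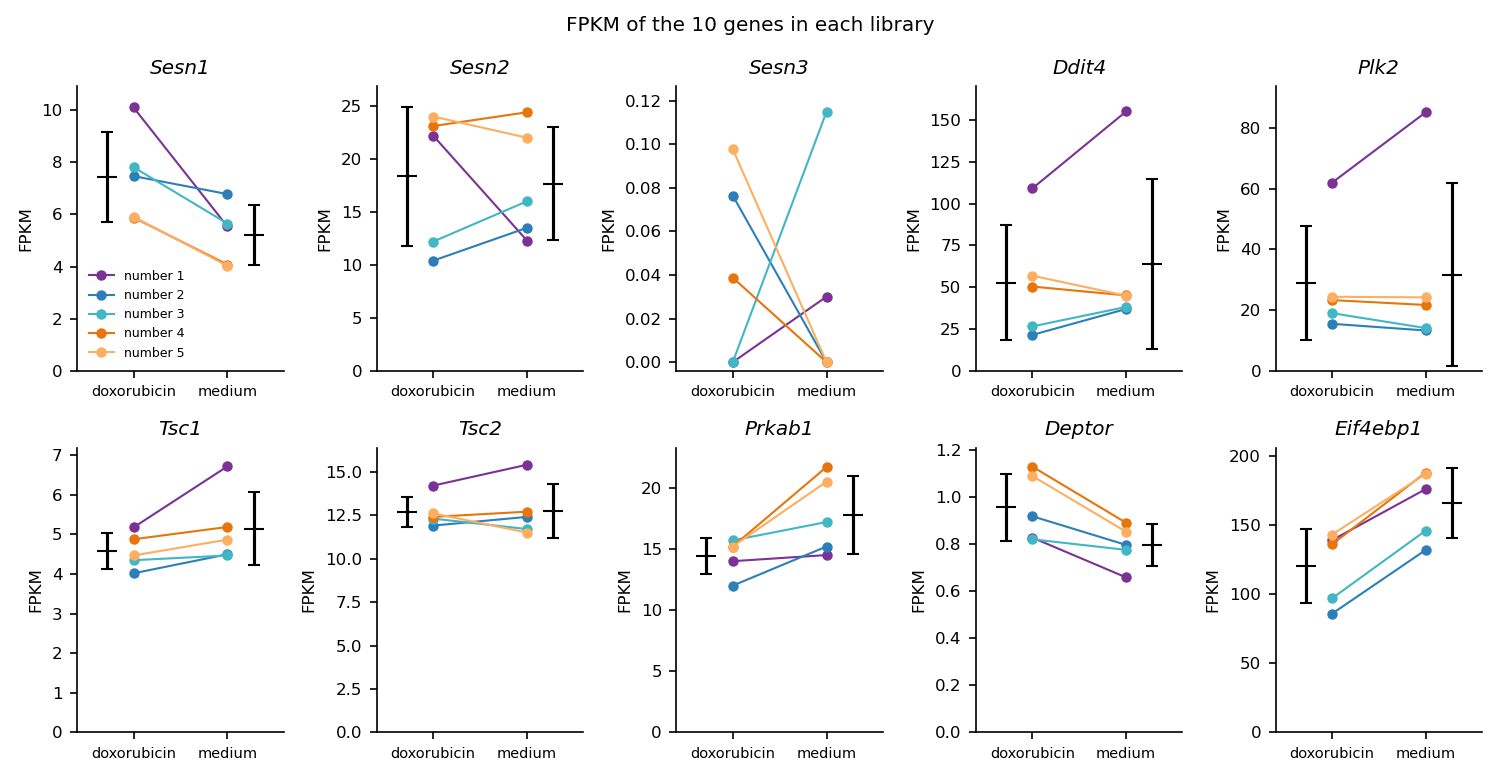
FPKM of each of the 10 genes (y axes, each with its own scale) in the 5 doxorubicin libraries (left) and the 5 medium libraries (right). Lines join libraries with the same replicate number and black marks give the mean and SD, which are not drawn for Sesn3, listed at 0 in 5 libraries. The lines of Sesn1 and Deptor all run higher with doxorubicin, those of Eif4ebp1, Prkab1 and Tsc1 all run lower, and Ddit4 and Plk2 are highest in number 1 of both groups.

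Sesn1 encodes sestrin 1, which binds GATOR2 and is induced by DNA damage through p53. Its levels were 10.1, 7.47, 7.81, 5.88 and 5.91 FPKM in doxorubicin replicates 1 to 5, against 5.54, 6.78, 5.65, 4.08 and 4.03 FPKM in medium replicates 1 to 5. Each doxorubicin library lay above the medium library of its own number, but medium replicate 2 lay above doxorubicin replicates 4 and 5. The group means were 7.43 ± 1.72 FPKM with doxorubicin and 5.22 ± 1.16 FPKM in medium (SD, n = 5 each). Sesn1 had a log2 fold change of 0.44 (SE 0.16, limma adjusted p = 0.189), and limma with the replicate block gave an adjusted p of 0.0113 with an SE of 0.08. Within numbers 1 to 5 the log2 differences were 0.76, 0.12, 0.41, 0.44 and 0.46, so number 1 gave the largest and number 2 the smallest. Without both number 1 libraries the blocked log2 fold change was 0.36 (limma adjusted p = 0.00528). The table gives 1 value per gene, so transcripts from different start sites of Sesn1 were not told apart.

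RefSeq lists 2 starts for Sesn1 on the forward strand of build GRCm38.p6, at chr10:41810324-41810623 and chr10:41887189-41887488 for the windows from 250 bases before to 50 bases after each. They are shown because Sesn1 was the gene that was higher, and the capitals in the downstream window mark the only match to the p53 half-site motif among the windows of these genes.
Sesn1 upstream start: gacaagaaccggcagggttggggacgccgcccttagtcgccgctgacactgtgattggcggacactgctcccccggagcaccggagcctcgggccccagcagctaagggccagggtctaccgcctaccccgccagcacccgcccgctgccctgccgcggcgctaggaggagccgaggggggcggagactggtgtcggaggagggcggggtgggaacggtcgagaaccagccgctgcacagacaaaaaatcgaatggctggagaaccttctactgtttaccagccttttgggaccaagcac
Sesn1 downstream start: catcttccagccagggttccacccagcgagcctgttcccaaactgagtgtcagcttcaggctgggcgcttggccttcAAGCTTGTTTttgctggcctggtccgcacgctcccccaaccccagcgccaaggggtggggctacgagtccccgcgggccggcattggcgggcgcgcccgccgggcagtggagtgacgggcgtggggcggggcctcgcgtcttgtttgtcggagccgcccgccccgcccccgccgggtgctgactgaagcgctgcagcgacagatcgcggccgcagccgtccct
The p53 half-site was searched by its consensus on both strands, and 8.36% of all 32851 RefSeq promoter windows of the same length hold a match. Windows were listed for 8 of the 10 genes, not for Deptor or Eif4ebp1. The motif TGATGNAAN is a form of the element bound by ATF4 with a C/EBP partner. It was in 0 of the 9 windows on either strand, against 3.95% of all windows. Eif4ebp1, a known ATF4 target, was thus not searched. A match is a description of these letters and not a bound site.

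Sesn2 encodes sestrin 2, the family member known as a leucine sensor. Its levels were 22.2, 10.4, 12.2, 23.1 and 24.0 FPKM in doxorubicin replicates 1 to 5, against 12.3, 13.5, 16.0, 24.4 and 22.0 FPKM in medium replicates 1 to 5. In both groups numbers 4 and 5 were high and numbers 2 and 3 low, while number 1 was high with doxorubicin and low in medium. Sesn2 had a log2 fold change of 0.02 with a 95% interval of -0.56 to 0.60 (SE 0.26, limma adjusted p = 0.973), and the blocked interval ran from -0.32 to 0.37. Within numbers 1 to 5 the differences were 0.80, -0.35, -0.37, -0.08 and 0.12 on the log2 scale. Without both number 1 libraries the log2 fold change was -0.17 (limma adjusted p = 0.728, or 0.130 with the replicate block). With group alone it was -0.09 to -0.06 without doxorubicin replicate 1, 4 or 5 or medium replicate 1 or 2. Without any other single library it was 0.00 to 0.20.

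Sesn3, the third sestrin, known as a FoxO target, was close to absent. It was listed at 0 in doxorubicin replicates 1 and 3 and at 0.0765, 0.0388 and 0.0978 FPKM in doxorubicin replicates 2, 4 and 5. In medium it was listed at 0 in replicates 2, 4 and 5 and at 0.0301 and 0.115 FPKM in replicates 1 and 3. It lay below the filter of a mean of 1 FPKM and was not tested.

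Set against each other within a library, Sesn1 stood at 0.454, 0.720, 0.643, 0.255 and 0.247 of the Sesn2 level in doxorubicin replicates 1 to 5, against 0.450, 0.504, 0.353, 0.167 and 0.183 in medium replicates 1 to 5. The ratio was higher with doxorubicin in 5 of 5 numbers, by little in number 1, and the groups overlapped. A two-sided exact permutation test gave p = 0.325, or 0.488 adjusted over the 3 ratios computed, which were chosen after the values were seen. The tests of these ratios took no account of the replicate numbers.

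Ddit4 encodes REDD1, which is induced by hypoxia, DNA damage and amino acid stress and activates the TSC complex. Its levels were 109, 21.5, 26.6, 50.4 and 56.9 FPKM in doxorubicin replicates 1 to 5, against 155, 37.0, 38.2, 45.1 and 44.9 FPKM in medium replicates 1 to 5. The number 1 libraries were the highest of both groups, and doxorubicin replicates 2 and 3 were the lowest of all 10. Ddit4 had a log2 fold change of -0.26 with a 95% interval of -1.31 to 0.80 (SE 0.48, limma adjusted p = 0.830), and with the replicate block the interval was -0.60 to 0.09 (limma adjusted p = 0.241). Within numbers 1 to 5 the differences were -0.51, -0.76, -0.51, 0.16 and 0.34, lower with doxorubicin in numbers 1 to 3 and higher in numbers 4 and 5. Without medium replicate 1 the log2 fold change was 0.12 (limma adjusted p = 0.869), and without doxorubicin replicate 1 it was -0.57 (limma adjusted p = 0.524).

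The difference between numbers 4 and 5 and numbers 2 and 3 was itself tested by an interaction of group with set in limma. These sets had been read from earlier results of the same values, and the test takes the numbers of a set as independent, so its p-values may be too small. Among the 8 genes tested, Ddit4 was the 1 that passed, where 1.56% of all genes did. Its log2 effect was 0.25 in numbers 4 and 5 and -0.63 in numbers 2 and 3, a difference of 0.88 (SE 0.12, limma adjusted p = 0.0159, or 0.00151 with the replicate block). Without doxorubicin replicate 5, medium replicate 2 or medium replicate 5 the adjusted p was 0.0631, 0.0701 and 0.0680 in limma. For Sesn2 the effects were 0.02 and -0.36, a difference of 0.38 (SE 0.13) with a limma adjusted p of 0.167, or 0.0484 with the replicate block, where 2.52% of all genes passed.

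Plk2 encodes a polo-like kinase known as a p53 target and an early responder to stress and growth signals. Its levels were 61.9, 15.5, 19.0, 23.3 and 24.4 FPKM in doxorubicin replicates 1 to 5, against 85.1, 13.3, 14.1, 21.7 and 24.2 FPKM in medium replicates 1 to 5. As with Ddit4, number 1 was far above the other numbers in both groups. The log2 fold change was 0.05 with a 95% interval of -1.03 to 1.14 (SE 0.49, limma adjusted p = 0.969), and the blocked interval was -0.19 to 0.30. Plk2 was higher with doxorubicin in 4 of 5 numbers, by 0.21, 0.41, 0.10 and 0.01 in numbers 2 to 5, and stood at -0.45 in number 1. Without both number 1 libraries it stood at 0.18 (limma adjusted p = 0.593, or 0.0606 with the replicate block).

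The promoter windows of Ddit4 (chr10:59951721-59952020, reverse strand) and Plk2 (chr13:110394794-110395093, forward strand), from RefSeq on GRCm38.p6, are shown because these 2 genes shared the high number 1 libraries. Capitals mark ACGTG, a form of the core of the element bound by hypoxia-inducible factors, read on either strand (CACGT is its reverse complement). Other forms of that core were not searched. Capitals also mark TGACGTCA, the cyclic AMP response element, which reads the same on both strands.
Ddit4: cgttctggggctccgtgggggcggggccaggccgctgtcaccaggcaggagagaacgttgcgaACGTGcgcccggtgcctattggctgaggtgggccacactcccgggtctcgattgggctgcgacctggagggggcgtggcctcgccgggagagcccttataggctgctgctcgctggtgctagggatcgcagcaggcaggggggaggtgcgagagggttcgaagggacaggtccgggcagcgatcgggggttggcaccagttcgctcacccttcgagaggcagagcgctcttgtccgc
Plk2: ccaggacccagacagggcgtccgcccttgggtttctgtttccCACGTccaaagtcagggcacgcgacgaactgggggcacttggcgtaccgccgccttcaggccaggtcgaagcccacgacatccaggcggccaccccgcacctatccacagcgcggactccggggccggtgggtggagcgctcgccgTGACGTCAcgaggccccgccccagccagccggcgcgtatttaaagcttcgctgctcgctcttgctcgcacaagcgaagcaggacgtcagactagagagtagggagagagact
Of all promoter windows of this length, 19.6% hold ACGTG and 1.79% hold TGACGTCA. The marked matches do not overlap each other, and here too a match describes these letters and is not a bound site.

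**Figure D2:**
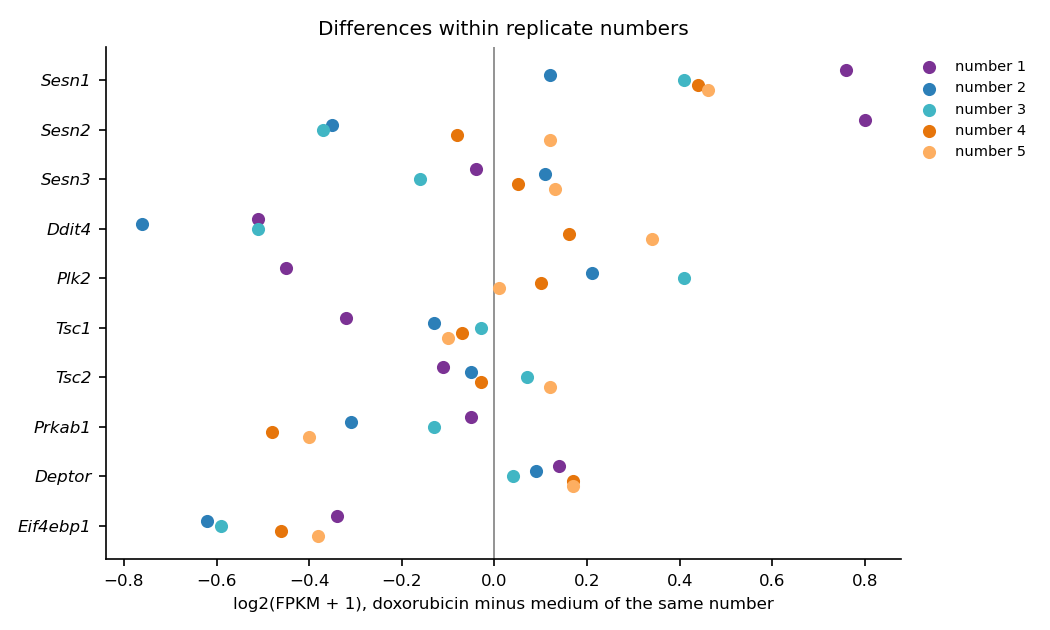
Log2(FPKM + 1) in the doxorubicin library minus that in the medium library of the same number (x axis) for the 10 genes, with 1 point per replicate number. Eif4ebp1, Prkab1 and Tsc1 lie below 0 and Sesn1 and Deptor above 0 in all 5 numbers, while Ddit4 runs from -0.76 in number 2 to 0.34 in number 5 and Sesn2 from -0.37 in number 3 to 0.80 in number 1.

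Tsc1 and Tsc2 encode the 2 main subunits of the TSC complex, hamartin and tuberin. Tsc1 was at 5.18, 4.02, 4.35, 4.88 and 4.47 FPKM in doxorubicin replicates 1 to 5, against 6.72, 4.50, 4.47, 5.19 and 4.87 FPKM in medium replicates 1 to 5. It was lower with doxorubicin in 5 of 5 numbers, with differences from -0.32 to -0.03, but it did not pass the test (log2 fold change -0.13, SE 0.10, limma adjusted p = 0.541, or 0.137 with the replicate block). Tsc2 was at 14.2, 11.9, 12.3, 12.4 and 12.6 FPKM in doxorubicin replicates 1 to 5, against 15.4, 12.4, 11.7, 12.7 and 11.5 FPKM in medium replicates 1 to 5. Its log2 fold change was 0.00 with a 95% interval of -0.19 to 0.19 (limma adjusted p = 0.999), the narrowest of the 8. In the RefSeq annotation Tsc2 overlaps Pkd1, and the sources used here do not say how fragments shared by both were counted.

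Prkab1 encodes the beta 1 subunit that holds the AMPK trimer together, and in human cells it is a known p53 target. Its levels were 14, 12.0, 15.7, 15.2 and 15.2 FPKM in doxorubicin replicates 1 to 5, against 14.5, 15.2, 17.2, 21.7 and 20.5 FPKM in medium replicates 1 to 5. Medium replicates 4 and 5 were high and lay, with replicate 3, above every doxorubicin library. The group means were 14.4 ± 1.49 FPKM with doxorubicin and 17.8 ± 3.18 FPKM in medium (SD, n = 5 each). Prkab1 had a log2 fold change of -0.27 (SE 0.12, limma adjusted p = 0.259, or 0.0290 with the replicate block) and was lower in 5 of 5 numbers, with differences between -0.48 in number 4 and -0.05 in number 1. The blocked call was lost without number 2, 4 or 5 (limma adjusted p = 0.0725, 0.107 and 0.109), fits added after the values were seen. Over all genes, these fits called 727 higher and 822 lower, 264 and 373, and 254 and 374, against 771 and 1356 with all 5 numbers.

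Deptor, whose product binds mTOR and inhibits both of its complexes, was low. It stood at 0.828, 0.919, 0.821, 1.13 and 1.09 FPKM in doxorubicin replicates 1 to 5, against 0.659, 0.797, 0.776, 0.891 and 0.853 FPKM in medium replicates 1 to 5. Each doxorubicin library lay above its medium partner, by 0.04 to 0.17 on the log2(FPKM + 1) scale. Its mean lay below the filter, and a fit with no filter gave a log2 fold change of 0.12 (limma adjusted p = 0.358). In the RefSeq annotation Deptor overlaps a long noncoding RNA gene.

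Eif4ebp1 encodes 4E-BP1, which binds the cap-binding protein eIF4E and blocks translation until mTORC1 phosphorylates it. It was the most abundant of the 10 genes. Its levels were 139, 85.8, 96.9, 136 and 143 FPKM in doxorubicin replicates 1 to 5, against 176, 132, 146, 188 and 187 FPKM in medium replicates 1 to 5. Each doxorubicin library was lower than the medium library of its number, and the groups overlapped only through doxorubicin replicates 1, 4 and 5, which lay above medium replicate 2. The means were 120 ± 26.7 FPKM with doxorubicin and 166 ± 25.2 FPKM in medium (SD, n = 5 each).

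The log2 fold change of Eif4ebp1 was -0.48 (SE 0.16, 95% interval -0.83 to -0.12, limma adjusted p = 0.168). With the replicate block its SE was 0.05 and its interval -0.60 to -0.36 (limma adjusted p = 0.00181). Within numbers 1 to 5 the differences were -0.34, -0.62, -0.59, -0.46 and -0.38. Numbers 2 and 3 gave the largest differences and number 1 the smallest. Without any 1 number the blocked call held, with limma adjusted p from 0.000167 to 0.0126 (for Sesn1, 0.00528 to 0.0488).

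Neither of the 2 paralogs of Eif4ebp1 passed the test. Eif4ebp2, which like Eif4ebp3 encodes another eIF4E-binding repressor, was at 44.6 ± 1.76 FPKM with doxorubicin and 41.3 ± 4.08 FPKM in medium (SD, n = 5 each; log2 fold change 0.11, limma adjusted p = 0.455). Eif4ebp3 was at 5.55 ± 0.571 FPKM with doxorubicin and 5.59 ± 0.356 FPKM in medium (limma adjusted p = 0.957). The ratio of Eif4ebp1 to Eif4ebp2 was 2.95, 2.01, 2.15, 3.15 and 3.17 in doxorubicin replicates 1 to 5, against 4.97, 2.94, 3.23, 4.77 and 4.53 in medium replicates 1 to 5. It was lower with doxorubicin in 5 of 5 numbers (two-sided exact permutation test, p = 0.0397, or 0.119 adjusted over the 3 ratios). Prkab1 over Prkab2 averaged 5.28 ± 0.237 with doxorubicin and 5.19 ± 1.11 in medium (SD, n = 5 each). A two-sided exact permutation test gave p = 0.746, or 0.746 adjusted over the 3 ratios. By number it was 5.04, 5.09, 5.53, 5.52 and 5.21 in doxorubicin replicates 1 to 5, against 3.93, 4.6, 4.82, 6.78 and 5.8 in medium replicates 1 to 5. This ratio was higher with doxorubicin in numbers 1 to 3 and lower in numbers 4 and 5.

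**Figure D3:**
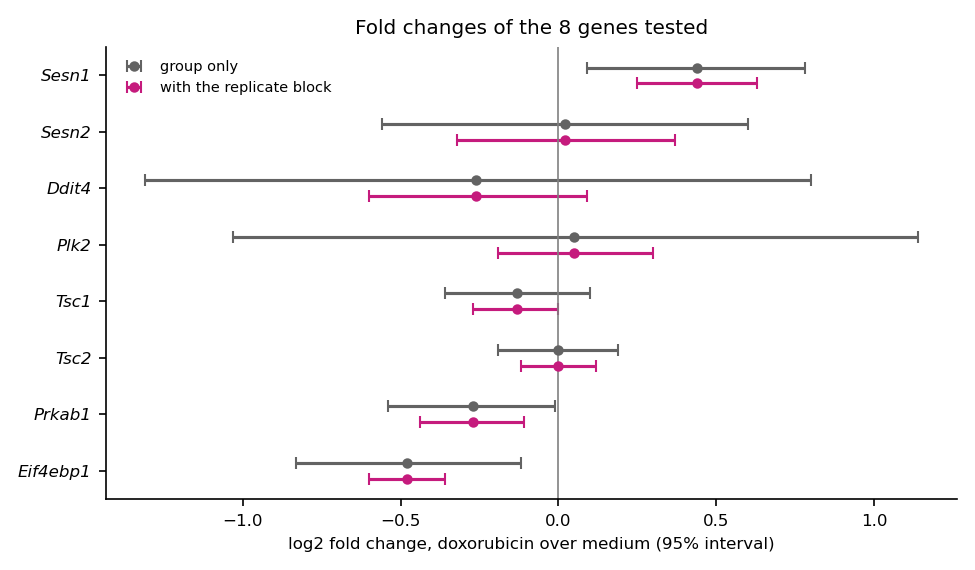
Log2 fold change of doxorubicin over medium (x axis) with its 95% interval for the 8 genes tested, from limma with group as the only term (grey) and with the replicate block (magenta). The block leaves each estimate in place and narrows the intervals, from -1.03 to 1.14 without it to -0.19 to 0.30 with it for Plk2. Adjusted over all genes, Sesn1, Prkab1 and Eif4ebp1 passed with the block.

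In all, 1 of the 8 genes tested was higher with doxorubicin in each of the 5 numbers (13.2% of all genes tested) and 3 were lower in each (23.1% of all). The order of levels was nearly the same in both groups. With doxorubicin it ran from Eif4ebp1 through Ddit4, Plk2, Sesn2, Prkab1, Tsc2, Sesn1, Tsc1 and Deptor to Sesn3, and in medium Prkab1 and Sesn2 changed places, at means of 17.8 and 17.6 FPKM with overlapping ranges. Eif4ebp1 was above Ddit4 and Ddit4 above Plk2 in 5 of 5 libraries with doxorubicin, although their ranges overlapped. Sesn1 and Tsc1 were apart with doxorubicin (at least 5.88 and at most 5.18 FPKM) and overlapped in medium, where Sesn1 was above Tsc1 in 2 of 5 libraries.

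Around the 10 genes, 92 other genes were listed in 11 groups, and 79 were tested. They are called pathway genes here, although 1 of the groups holds the polo kinases, the family of Plk2. In the fit with group alone 0 were higher and 1 was lower, Kptn, which encodes a subunit of KICSTOR, the complex that holds GATOR1, an inhibitor of the RAG GTPases, on the lysosome. Kptn was at 3.48, 3.91, 4.22, 4.40 and 4.81 FPKM in doxorubicin replicates 1 to 5, against 6.38, 5.27, 6.32, 6.0 and 6.29 FPKM in medium replicates 1 to 5. All doxorubicin libraries lay below all medium libraries (log2 fold change -0.45, SE 0.08, limma adjusted p = 0.0354, or 0.00538 with the replicate block). The call was lost in 8 of the 10 fits without 1 library (all but those without medium replicate 1 or 2), with limma adjusted p up to 0.117. Those 8 fits called 0 to 7 of all genes lower, against 22 with all 10 libraries. With the replicate block 2 of the 79 were higher and 11 lower, where 7.81% of all genes were called higher and 13.7% lower, and the median log2 fold change was -0.06, against -0.03 over all genes tested. Without both number 1 libraries the blocked counts were 3 higher and 18 lower, where 10.2% and 18.4% of all genes were called.

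Of the 11 tested genes of the AMPK group, 5 were lower and 0 higher with the block, where 13.7% of all genes were called lower, and in the fit with group alone 0 passed. The group median was -0.18, and the group was not tested against other genes. In each of the 5 numbers 6 of these genes were lower and 1, Camkk2, was higher (23.1% and 13.2% of all genes tested). Camkk2 did not pass (log2 fold change 0.26, limma adjusted p = 0.481, or 0.0974 with the block). Prkab2, the other beta subunit, was at 2.73 ± 0.218 FPKM with doxorubicin and 3.46 ± 0.203 FPKM in medium (SD, n = 5 each), and its groups did not overlap (log2 fold change -0.26, limma adjusted p = 0.106, or 0.0170 with the replicate block). The gamma 1 subunit gene Prkag1 was at 25.3 ± 2.83 FPKM with doxorubicin and 29.5 ± 3.39 FPKM in medium (-0.21, limma adjusted p = 0.309, or 0.0172 with the block). Cab39 and Stradb, whose products form the complex that activates LKB1, the kinase upstream of AMPK, had log2 fold changes of -0.18 and -0.21 (limma adjusted p = 0.0304 and 0.0369 with the block). Each of these 4 was lower in 5 of 5 numbers, and the fifth of the group was Prkab1. The blocked call of Prkab2, Cab39 and Stradb was lost without any 1 of numbers 2 to 5, and that of Prkag1 without number 4 or 5. Over all genes, these fits called 727 higher and 822 lower without number 2, and 430 and 870 without number 3. The counts were 264 and 373 without number 4, and 254 and 374 without number 5, against 771 and 1356 with all 5.

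The other blocked calls were spread over 5 groups, sestrins aside. Over all genes tested, 7.81% were called higher and 13.7% lower with the block. In the group of GATOR1 and KICSTOR, 2 of 6 tested genes were lower with the block, Kptn and Itfg2, another KICSTOR subunit gene (5.81 ± 0.841 FPKM with doxorubicin and 7.92 ± 1.99 FPKM in medium, SD, n = 5 each; -0.37, limma adjusted p = 0.0184 with the block). Of 14 tested genes for the RAG GTPases, Ragulator and amino acid sensors, 2 were higher with the block. These were Lamtor4, a Ragulator subunit gene (25.5 ± 1.86 FPKM with doxorubicin and 21.7 ± 0.981 FPKM in medium; 0.22, limma adjusted p = 0.0402 with the block), and Castor2, a relative of the arginine sensor gene Castor1 (2.98 ± 0.500 FPKM with doxorubicin and 2.13 ± 0.558 FPKM in medium; 0.36, limma adjusted p = 0.0239 with the block). Among 12 tested genes of the translation arm, Eif4ebp1 and Eef2k, the kinase that inhibits elongation factor 2, were lower with the block (Eef2k 5.81 ± 1.53 FPKM with doxorubicin and 8.56 ± 2.93 FPKM in medium; -0.47, limma adjusted p = 0.0295). Of 11 PI3K and AKT genes, 3 were lower with the block, Pdpk1 (-0.17), Pik3cg (-0.17) and Pik3cb (-0.16). Of 4 polo kinase genes 1 was lower, the centriole duplication kinase gene Plk4 (-0.23). Except for Kptn and Eif4ebp1, each blocked call of these groups was lost in some fit without 1 number. Lamtor4 and Castor2 were lost without number 3, 4 or 5, Itfg2 without 4 or 5, and Eef2k without 2, 3 or 4. Pdpk1, Pik3cg, Pik3cb and Plk4 were lost without any 1 of numbers 2 to 5. Fewer of all genes passed in each of these fits, as given above for the AMPK group.

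No gene of the mTOR complexes, of GATOR2, of the TSC and RHEB group or of the autophagy and TFEB arm passed with the block or without it, among 8, 5, 5 and 8 tested. The GATOR2 genes Wdr24 and Seh1l had every doxorubicin library below every medium library, at log2 fold changes of -0.18 and -0.17 (limma adjusted p = 0.0563 and 0.0736 with the block). Both passed under library quality weights (limma adjusted p = 0.0152 and 0.0268), a setting that called 1379 of all 9869 genes higher and 2302 lower. The groups were likewise apart for Kptn, Prkab2 and Pik3cb, lower with doxorubicin, and for Lamtor4, higher. Of all genes tested, 3.97% had every doxorubicin library below every medium library and 2.73% had every one above. Mtor itself was at 12.1 ± 0.921 FPKM with doxorubicin and 11.5 ± 1.27 FPKM in medium (SD, n = 5 each; 0.07, limma adjusted p = 0.749). Rptor, the gene of the subunit that defines mTORC1, was at 9.41 ± 0.725 FPKM with doxorubicin and 9.10 ± 0.714 FPKM in medium (0.04, limma adjusted p = 0.807), and Rheb at 43.1 ± 5.27 FPKM with doxorubicin and 47.8 ± 7.81 FPKM in medium (-0.14, limma adjusted p = 0.614). These 3 were named after their values were seen, as the central genes of the pathway. A blocked fit without both number 1 libraries called 18.4% of all genes tested lower. In it 3 genes of the TSC and RHEB group and 2 of the autophagy and TFEB arm were lower. Rheb was among the 3 (limma adjusted p = 0.0123).

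**Figure D4:**
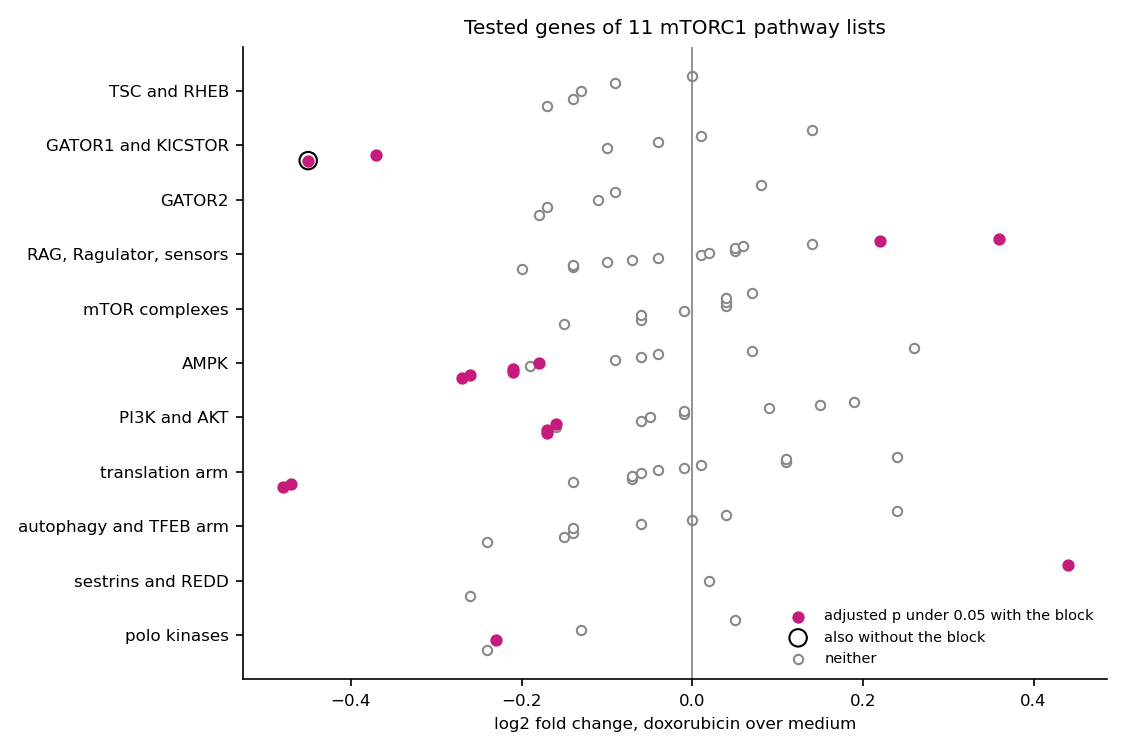
Log2 fold change of doxorubicin over medium (x axis) for each tested gene of the 11 pathway groups (rows), where magenta points passed an adjusted p of 0.05 with the replicate block and the ring marks the gene that also passed without it. The ring is on Kptn at -0.45, 5 magenta points of the AMPK group lie below 0, and Sesn1 at 0.44 lies farthest to the right.

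For the 3 genes called with the block, the genes with the most similar pattern were sought by the root mean square distance between deviations from each gene's own mean in log2(FPKM + 1) over the 10 libraries. Nearest to Eif4ebp1 were Slc3a2 (distance 0.0847), which encodes the heavy chain of the leucine transporter, and Samsn1 (0.0959), against a spread of 0.351 for Eif4ebp1 itself. Slc3a2 was at 102, 75.4, 81.6, 104 and 104 FPKM in doxorubicin replicates 1 to 5, against 132, 101, 110, 142 and 137 FPKM in medium replicates 1 to 5. Nearest to Sesn1 were Afp (0.105), the alpha-fetoprotein gene, and Echdc2 (0.110), against a spread of 0.331. Nearest to Prkab1 were Lyn (0.0592), a Src family kinase gene, and Myoz1 (0.0699), against a spread of 0.226. The 10 libraries share the sets of replicate numbers, and what a like pattern owes to the sets and to the drug was not tested.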

How the data were processed

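Oligo(dT)-selected RNA was sequenced from 5 doxorubicin and 5 medium libraries. The authors deposited FPKM values, with columns matched to libraries through the names that the labels give. The submitters' processing notes name the build GRCm39, and the aligner, quantifier, annotation and strand handling are not given in the sources used here. Steps of whole reads were not seen among low values, so the depth is unknown and no counting interval is given. Libraries summed to between 338293 and 356111 FPKM, with 8207 to 9125 of the 22186 genes at 0.

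All tests used log2(FPKM + 1), on which fold changes of low genes are understated. The 9869 genes whose mean reached 1 FPKM entered limma 3.58.1 (R 4.3.3), with the variance trend on, group alone in the model and p-values adjusted by Benjamini-Hochberg across those genes (threshold 0.05). The members, pathway lists and sets of numbers were chosen with earlier results of these data known. Pathway genes were named when they passed with or without the block. At most 4 per list and direction were named, by smallest adjusted p, and Stradb, the fifth of its list, was added. Camkk2, Wdr24, Seh1l, Eif4ebp2, Eif4ebp3, Mtor, Rptor and Rheb passed in neither fit and were named outside this rule. Likeness was sought for members called in either fit. Promoters came from RefSeq on GRCm38.p6 and were read as sequence only.

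Replicate numbers come from the titles. Libraries of 1 number deviated together from their group means, with correlations of 0.794, 0.700, 0.667, 0.524 and 0.547 for numbers 1 to 5, each over 0.1, so the numbers were taken to pair the libraries and the fit with the number as a block is given where it changed a call. Numbers 2 and 3, and likewise 4 and 5, correlated across numbers too (0.509 to 0.692), so they form 3 sets rather than 5 separate pairs. Doxorubicin replicate 3 correlated more with medium replicate 2 (0.692) than with medium replicate 3 (0.667). Blocked fits and tallies over the 5 numbers take the numbers as independent, so blocked p-values may be too small. Alternatives were the pseudocount, the filter, the scaling, library quality weights, blocks by number or set, an exact permutation test and libraries left out.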

Additional observations from a re-analysis of the deposited data

Results flagged for a closer look

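Ddit4 in medium replicate 1, at 155 FPKM, lay far from the other 4 medium libraries, which ran from 37.0 to 45.1 FPKM. Sesn3 in medium replicate 3, at 0.115 FPKM, lay apart from medium libraries at 0 to 0.0301 FPKM, a level at which the gene was not tested. About 1 group in 20 is set apart in this way by chance. The effect of doxorubicin on Ddit4 differed between sets of replicate numbers, by 0.88 on the log2 scale for numbers 4 and 5 minus numbers 2 and 3 (limma interaction, adjusted p = 0.0159).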

How the results depend on the processing

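With group alone, 0 genes of the 10 were called in either direction under each pseudocount, filter and scaling and in every fit without 1 library. The counts became 1 higher and 2 lower under library quality weights, the replicate block, the block in 3 sets, and the block without number 1. In the blocked fit without replicate 1, 2, 3, 4 or 5 of both groups, added after the values were seen, 1 was higher each time and 1 to 2 were lower. Of the other pathway genes, 0 were higher and 1 was lower with group alone. The counts were 5 and 18 under quality weights, 2 and 11 with the block, 4 and 20 with the block in 3 sets, and 3 and 18 with the block without number 1. Lower genes numbered 0 with no filter, 0 by the exact permutation test, 4 without number 1 and 0 to 1 without 1 library. The blocked fit without each number gave 0 to 3 higher and 1 to 18 lower. Over all 9869 genes tested, 68 were higher and 22 lower with group alone, against 771 and 1356 with the replicate block. They numbered 1379 and 2302 under quality weights, 1205 and 1963 with the block in 3 sets, and 1010 and 1817 with the block without number 1. Without number 1 and without the block they numbered 283 and 273. Over all genes, the blocked fit without each number gave 254 to 1010 higher and 373 to 1817 lower. The difference between sets was called in 1 of the 8 genes, in 2 with the block, and in 0 to 1 without 1 library.

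The sign of 4 small log2 fold changes turned. Sesn2 was -0.12 under quality weights, -0.17 without number 1, with or without the block, and -0.09 to 0.20 without 1 library. Ddit4 was 0.06 under quality weights and -0.57 to 0.12 without 1 library. Tsc2 was -0.01 rescaled to an equal sum, -0.04 to 0.07 without 1 library, and -0.02 and -0.03 in the blocked fit without number 3 and 5. Plk2 was -0.26 to 0.49 without 1 library and -0.04 in the blocked fit without number 3. The difference between sets ran from -0.06 to 0.05 for Tsc1 and from -0.03 to 0.10 for Tsc2 without 1 library. The causes were not tested. Tsc1 has no value under the filter at a mean of 5 FPKM. Depth is unknown, which limits what can be said of Sesn3 and Deptor.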

Other observations

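For the 2 genes with the widest spread, Ddit4 and Plk2, the closest patterns were also read, outside the rule for named genes and after the values were seen. Nearest to Ddit4 were F10, the coagulation factor X gene (root mean square distance 0.207), and Hilpda, a lipid droplet gene known to be induced by hypoxia (0.230), against a spread of 0.799 for Ddit4 itself. Hilpda was at 125, 37.8, 48.5, 59.9 and 65.3 FPKM in doxorubicin replicates 1 to 5, against 227, 56.1, 57.7, 67.8 and 77.1 FPKM in medium replicates 1 to 5. As for Ddit4, number 1 was the highest of both groups, but Hilpda was below its medium partner in numbers 4 and 5, where Ddit4 was above. Nearest to Plk2 were Hpse, the heparanase gene (0.153), and Pakap (0.158).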
